A study of Mus musculus with 12 samples.

Results

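The 10 genes described here encode 7 E2F transcription factors (E2f1, E2f2, E2f3, E2f4, E2f6, E2f7 and E2f8) and the 3 retinoblastoma or pocket proteins (Rb1, Rbl1 and Rbl2). They were taken by symbol from the 24138 genes of each deposited table, and each of the 10 was found on 1 row and tested by the authors in every comparison. RNA came from intra-aortic haematopoietic clusters of mouse embryos, which bud from the wall of the aorta and give rise to blood stem cells. Cells carrying CD31 and CD117 and lacking SSEA-1 were collected by sorting the aorta-gonad-mesonephros region (AGM) of C57BL/6 embryos. The 12 samples form 4 groups of 3: G1 cells of Fucci Red embryos (mKO2-positive) and S/G2/M cells of Fucci Green embryos (mAG-positive), each at the embryonic ages E10.5 and E11.5. Phase and reporter strain therefore coincide and cannot be told apart. Neither separate litters nor the number of pooled embryos is recorded in the labels.

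The Fucci reporters mark phase through the timed destruction of a fluorescent protein, and the sort was made on those proteins and not on any RNA measured here. The genes of the sort were present in every group. Pecam1, which encodes CD31, had 30.2 to 111 FPKM and Kit, which encodes CD117, had 12.7 to 28.9 FPKM. FPKM is the number of sequenced fragments scaled for transcript length and library size, so levels of different genes can be set side by side. The authors' tables used here give 1 value per gene and group, and values of single samples were not analysed here. No SD is therefore given, the depth is unknown, and the order of 2 genes or groups of similar level is a description. A gene is called where its q in the authors' deposited table was below 0.05, and "rose" and "fell" are kept for called genes. Since nothing says that the samples came from separate animals, those q-values may measure a technical spread only.

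In the textbook account, hypophosphorylated pocket proteins bind E2F factors in G1 and hold their target genes silent. Cyclin D and cyclin E kinases phosphorylate the pocket proteins and free the activating factors E2f1, E2f2 and E2f3, which then switch on genes for DNA replication. E2f4 acts mainly with Rbl1 and Rbl2 as a repressor in quiescent and G1 cells, within the DREAM complex built on the MuvB core. E2f6, E2f7 and E2f8 repress without a pocket protein. E2f7 and E2f8 need no DP partner, are themselves E2F targets, and restrain replication genes late in S phase.

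None of the 10 genes was called in any of the 4 comparisons. For S/G2/M against G1, 0 of 10 were called at E10.5, where 0.655% of all tested genes were called, and 0 of 10 at E11.5, where 0.701% were. For E11.5 against E10.5, 0 of 10 were called in G1 cells (4.45% of tested genes) and 0 of 10 in S/G2/M cells (4.07%). With so small a background, a count of 0 among 10 genes is close to the share of all genes. Of the 40 pairs of gene and comparison, 4 had a p under 0.05 before adjustment in the authors' deposited table. They were E2f8 for phase at E10.5 and for age in G1, E2f7 for age in G1, and E2f2 for age in S/G2/M. In the 4 comparisons, in the order given, 6.69%, 8.27%, 15.4% and 13.9% of tested genes had such a p. The lowest q of any member in the authors' deposited table was 0.152.

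The size of change that the authors' test could call sets what these values can show. Among tested genes in the same range of expression as the members, the smallest called difference between phases was 2.98-fold at E10.5 and 2.76-fold at E11.5. Between ages the smallest called difference was 2.14-fold in G1 cells and 1.99-fold in S/G2/M cells. The members differed by up to 2.20-fold between phases and up to 2.38-fold between ages. Differences of the size seen between phases in these 10 genes were thus smaller than any called at their level. Between ages 4 values, of E2f8 and Rbl2 in G1 cells and of E2f2 and Rbl2 in S/G2/M cells, exceeded the smallest called fold. Most genes of that size were not called either: of those at least 2-fold different in this range, 16.97% were called in G1 cells and 22.2% in S/G2/M cells. A missing call therefore does not show that a gene was the same in both groups.

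**Figure D1:**
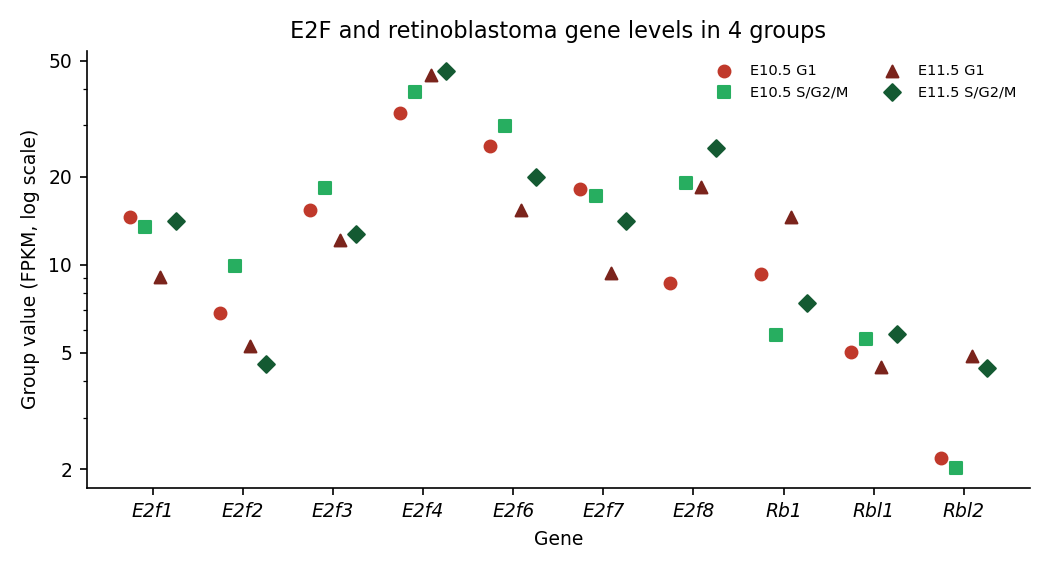
Group values in FPKM (vertical axis, log scale) of the 10 genes (horizontal axis), with 1 point for each of the 4 groups and no error bars, since the tables give 1 value per group. E2f4 is highest in every group, at 33.0 to 46.2 FPKM, and Rbl2 at E10.5 is lowest, at 2.02 to 2.18 FPKM.

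The levels gave a stable outer order and a changing middle. E2f4 was the most abundant member in every group, and E2f6 came next at E10.5. At E11.5 E2f8 held the place after E2f4. Rbl1, Rbl2 and E2f2 were among the 4 lowest members of every group. Levels of the 2 ages in this order come from tables that were normalised separately. For these genes, values of 1 group in different tables differed by 0.470% to 6.01%, with a median of 3.29%.

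The activators are described first. E2f1, on chromosome 2 (154559400 to 154569892, mm10), had 14.6 FPKM in G1 cells and 13.5 in S/G2/M cells at E10.5, and 9.08 and 14.1 FPKM at E11.5. It was thus lowest in E11.5 G1 cells, while the other 3 groups lay between 13.5 and 14.6 FPKM. Its phase difference at E11.5 was 1.55-fold, with p = 0.190 and q = 0.806 in the authors' deposited table. E2f3 had 15.4 and 18.3 FPKM at E10.5 and 12.2 and 12.8 FPKM at E11.5, a little lower at the later age in both phases.

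E2f2, on chromosome 4 (136172274 to 136196056), had the lowest levels of the 3 activators and the largest age difference among them. At E10.5 it had 6.86 FPKM in G1 cells and 9.90 in S/G2/M cells, and at E11.5 it had 5.29 and 4.57 FPKM. It was highest in E10.5 S/G2/M cells, and the direction between phases was opposite at the 2 ages. In S/G2/M cells it was 2.07-fold lower at E11.5, at 9.86 and 4.75 FPKM in the table of ages, with p = 0.0386 and q = 0.318 in the authors' deposited table. The summed level of the 3 activators was 36.8 and 41.7 FPKM at E10.5 and 26.5 and 31.4 FPKM at E11.5. This was 26.6% and 26.0% of the summed level of the 10 genes at E10.5, and 19.2% and 20.3% at E11.5. No test of these sums was made, since the tables give group values.

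E2f4, the pocket-protein-bound repressor on chromosome 8 (105297663 to 105305370), had 33.0 and 39.0 FPKM at E10.5 and 44.5 and 46.2 FPKM at E11.5. Both values at E11.5 lay above both at E10.5. The age difference was 1.43-fold in G1 cells, with p = 0.187 in the authors' deposited table, and 1.24-fold in S/G2/M cells, with p = 0.373. E2f4 RNA was 2.26 times that of E2f1 in E10.5 G1 cells and 4.90 times in E11.5 G1 cells. In S/G2/M cells the ratio was 2.89 at E10.5 and 3.28 at E11.5.

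E2f6 represses genes as part of a Polycomb complex and lacks the domain that binds pocket proteins. It lies on chromosome 12 (16810965 to 16826752) and had 25.5 and 29.9 FPKM at E10.5 and 15.5 and 19.997 FPKM at E11.5. Both E11.5 values were lower than both E10.5 values, the reverse of E2f4. The age difference was 1.56-fold in G1 cells and 1.42-fold in S/G2/M cells, with p = 0.170 and 0.177 in the authors' deposited table. Of 6 partners of E2f6 in its complex, none was called in any comparison, beside 0.655% to 4.45% of all tested genes. Max, which also pairs with Myc proteins, was the most abundant of the partners at 124 to 188 FPKM. The ubiquitin ligase gene Rnf2 had 22.7 to 29.1 FPKM. Mga, which joins E2f6 and Max in the complex, had 14.9 to 17.2 FPKM. None of 5 germ cell genes that E2f6 is known to hold silent had enough reads to be tested. Stag3, a meiotic cohesin gene, had 0.0788 to 0.684 FPKM. Smc1b, another, had 0.504 FPKM in E10.5 G1 cells, 0.00886 FPKM in E11.5 G1 cells and was listed at 0 in both S/G2/M groups. Tuba3a, Tuba3b and Slc25a31 were listed at 0 in every group.

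The atypical repressors E2f7 and E2f8, paralogs with overlapping roles, had different orders of level over the 4 groups, though neither was called. Sequences upstream of an annotated start are printed here because these 2 genes are known E2F targets and are described together. They are the 250 bases before a RefSeq start site (GRCm38.p6, which is mm10), 5′ to 3′ on the strand of the gene. Capitals mark E2F-like letters (TTCCCGC or TTCGCGC, and also TTGCCGC or TTGGCGC, on either strand) and letters of the cell cycle homology region (CHR, the site bound by MuvB: TTTGAA or TTCGAA, on either strand). The E2f8 window is chr7:48881597-48881846 on the minus strand and the E2f7 window is chr10:110745189-110745438 on the plus strand.
E2f8: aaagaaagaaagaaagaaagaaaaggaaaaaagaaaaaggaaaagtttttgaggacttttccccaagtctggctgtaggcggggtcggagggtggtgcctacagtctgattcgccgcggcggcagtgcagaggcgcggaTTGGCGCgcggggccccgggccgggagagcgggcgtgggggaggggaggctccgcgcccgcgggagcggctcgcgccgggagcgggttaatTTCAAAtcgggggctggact
E2f7: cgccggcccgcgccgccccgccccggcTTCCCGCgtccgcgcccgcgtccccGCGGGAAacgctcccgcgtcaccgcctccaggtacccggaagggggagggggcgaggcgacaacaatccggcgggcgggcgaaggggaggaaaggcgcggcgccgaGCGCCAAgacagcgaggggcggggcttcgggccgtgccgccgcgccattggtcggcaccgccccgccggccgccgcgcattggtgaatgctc
The E2f8 window held 1 E2F-like match, from base -111 to -105 counted from the start site, and 1 CHR match on the other strand, from -20 to -15. The E2f7 window held 3 E2F-like matches, at -223 to -217, -198 to -192 and -92 to -86, and no CHR letters. E2F-like letters occurred in 7.89% of the 32851 windows of this length in the RefSeq table, CHR letters in 17.1% and both in 0.874%. The E2f8 start site used here, at 48881596, is not the outermost: the RefSeq gene runs to 48882073, so the printed window lies within it. The deposited gene on chromosome 7 (48866429 to 48881041) ends before that start site. A match is a description of letters, and binding was not measured.

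At E10.5 E2f8 had 8.67 FPKM in G1 cells and 19.1 in S/G2/M cells, and at E11.5 it had 18.5 and 25.0 FPKM. The E10.5 G1 group was thus low and the other 3 groups lay between 18.5 and 25.0 FPKM. Between phases at E10.5 it was 2.20-fold higher in S/G2/M cells, with p = 0.0041 and q = 0.261 in the authors' deposited table. There, 204 of 12984 tested genes, 1.57%, had a p as small or smaller. Between ages in G1 cells it was 2.27-fold higher at E11.5, at 8.26 and 18.8 FPKM, with p = 0.0130 and q = 0.152 in the authors' deposited table. These 2 comparisons share the E10.5 G1 samples, so they are not separate observations of a low value there. Where that group is not involved, the difference was smaller: 1.35-fold between phases at E11.5 (p = 0.311 in the authors' deposited table) and 1.38-fold between ages in S/G2/M cells (p = 0.163). Whether the phase difference differed between ages could not be tested.

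E2f7, on chromosome 10 (110745465 to 110787384), had 18.2 FPKM in G1 cells and 17.3 in S/G2/M cells at E10.5, and 9.37 and 14.2 FPKM at E11.5. Here E11.5 G1 was the low group. Between ages in G1 cells it was 1.82-fold lower at E11.5, with p = 0.0447 and q = 0.306 in the authors' deposited table. The ratio of E2f8 to E2f7 RNA was 0.478 in E10.5 G1 cells, 1.11 in E10.5 S/G2/M cells, 1.98 in E11.5 G1 cells and 1.77 in E11.5 S/G2/M cells. E2f7 thus had the higher level of the pair in E10.5 G1 cells and E2f8 in the other 3 groups, at E10.5 S/G2/M by little. Their summed level at E10.5 was 26.8 FPKM in G1 cells and 36.4 in S/G2/M cells, and 27.9 and 39.2 FPKM at E11.5. The sum was thus higher in S/G2/M cells at both ages, while its make-up differed between ages.

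**Figure D2:**
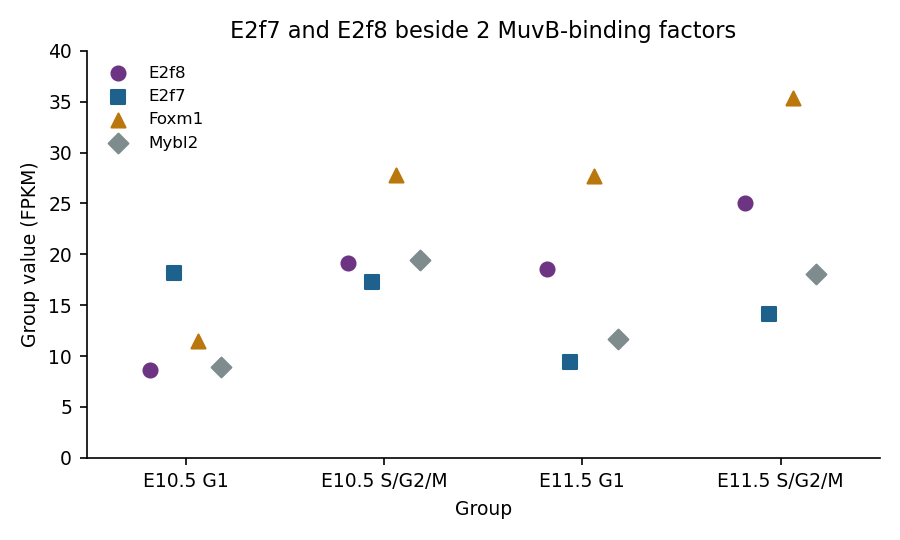
Group values in FPKM (vertical axis, from 0) of E2f8, E2f7, Foxm1 and Mybl2 in the 4 groups (horizontal axis), 1 point per gene and group without error bars. E2f8 and Foxm1 have their low value in E10.5 G1 cells (8.67 and 11.45 FPKM), whereas E2f7 has its low value in E11.5 G1 cells (9.37 FPKM).

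The pattern of E2f8 was compared with that of 9695 genes of at least 5 FPKM in their highest group, by the distance between log2 levels over the 4 groups after centring each gene on its own mean. The closest gene that is no member was Foxm1, a transcription factor of G2 and mitosis that binds MuvB, at a distance of 0.133 log2 units. Its row also carries the name 4933413G19Rik, so reads of those 2 genes were not separated. Foxm1 had 11.45 and 27.8 FPKM at E10.5 and 27.7 and 35.3 FPKM at E11.5. Next came Slc10a7 (0.141), Pigyl (0.146), Cep55, a protein of cell abscission (0.151), and Prodh (0.153). With 4 values per gene, such likeness is a description.

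The pocket proteins had low levels, and Rb1 was the only member with over 1.5-fold higher values in G1 at both ages. Rb1, on chromosome 14 (73195502 to 73325791), had 9.29 FPKM in G1 cells and 5.73 in S/G2/M cells at E10.5, and 14.6 and 7.43 FPKM at E11.5. Both G1 values lay above both S/G2/M values. The difference was 1.62-fold at E10.5 and 1.97-fold at E11.5, with p = 0.255 and 0.149 and q = 0.946 and 0.776 in the authors' deposited table. E11.5 G1 was the high group, 1.67-fold above E10.5 G1, with p = 0.246 in the authors' deposited table.

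Rbl1 (p107), itself a known E2F target, varied least. It had 5.03 and 5.56 FPKM at E10.5 and 4.47 and 5.79 FPKM at E11.5, so all 4 groups lay between 4.47 and 5.79 FPKM. Rbl2 (p130), the pocket protein best known from quiescent cells, had the largest age ratio of the members when nothing was added to the values. It had 2.18 and 2.02 FPKM at E10.5 and 4.88 and 4.44 FPKM at E11.5, so that age and not phase separated its values. Between ages it was 2.38-fold higher at E11.5 in G1 cells and 2.30-fold higher in S/G2/M cells. In the authors' deposited table p was 0.165 and 0.239 and q was 0.561 and 0.692. With 1 FPKM added to each value, its log2 ratios were 0.950 in G1 cells and 0.903 in S/G2/M cells. Those of E2f8 in G1 cells (1.09) and of E2f2 in S/G2/M cells (-0.916) were then larger in size. The deposited gene on chromosome 8 (91070057 to 91135494) runs past the RefSeq end of Rbl2 at 91123844, and what its reads cover there was not tested. The ratio of Rbl2 to Rbl1 was 0.434 and 0.363 at E10.5 and 1.09 and 0.768 at E11.5.

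Of the 10 members, 8 had in all 10 windows in the RefSeq table, each the 250 bases before an annotated start. Of these windows 4 lie inside the RefSeq span of their gene, since another start lies farther upstream. They are the only window of E2f1, the only window of E2f8 and 1 of the 2 windows each of E2f2 and E2f3. E2F-like letters occurred in at least 1 window of 4 of the 8 genes (E2f3, E2f7, E2f8 and Rbl1), and in 9.01% of the 27025 genes of the table. CHR letters also occurred in 4 of the 8 (E2f2, E2f3, E2f8 and Rbl2), and in 19.6% of all genes. E2f3 thus held both, as E2f8 did. The CHR match of E2f2 lies only in its window inside the gene, and the matches of E2f8 also lie in such a window. The remaining E2F-like matches are printed as 30 bases on the strand of the gene, to be read beside those of E2f7 and E2f8, with E2F-like and CHR letters in capitals. They lie at chr13:29986064-29986093 and chr2:157204535-157204564, both on the minus strand.
E2f3: aatatggTTTGAAaagccgGCGGGAAatct
Rbl1: caagaaggcgattTTCGCGCgctttgtcgc
The E2F-like match of E2f3 lies from -11 to -5 on the opposite strand and its CHR match from -23 to -18, and the Rbl1 match from -17 to -11. Both genes differed by at most 1.30-fold between phases at either age.

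The markers of other cell types that moved with phase and age are given beside these values. Of all tested genes, 0.655% were called between phases at E10.5 and 0.701% at E11.5, in either direction. Between ages the shares were 4.45% in G1 cells and 4.07% in S/G2/M cells. At E11.5, 7 of 12 macrophage markers fell from G1 to S/G2/M cells, and the list summed to 2967 and 1044 FPKM. At E10.5 none of the 11 tested was called and the sums were 447 and 307 FPKM. Between ages 11 of the 12 rose in G1 cells and 7 of the 12 in S/G2/M cells. The macrophage sums were thus higher in G1 cells at both ages, as Rb1 was, and so were the neuronal sums given next. Cd14 of the macrophage list went the other way at E10.5, with 0.470 FPKM in G1 and 0.488 in S/G2/M cells. At E10.5 the neuronal markers fell from G1 to S/G2/M cells, 8 of 8, with sums of 484 and 77.3 FPKM, so that E10.5 G1, the low group of E2f8, was the high group of neuronal RNA. At E11.5, 1 of the 8, Ncan, fell between phases, and the sums were 161 and 86.9 FPKM. Of 8 mesenchymal markers 4 fell with age in each phase, with sums of 155 and 51.8 FPKM in G1 cells. Of 8 tested erythroid markers none was called between phases at E10.5 and 3 fell in S/G2/M cells at E11.5, with sums of 12185 and 3103 FPKM. Genes of the clusters also differed with age: of 10 tested in G1 cells 3 rose, and of 11 in S/G2/M cells 5 rose, among them Runx1, a regulator of blood stem cell formation. The sort gene Pecam1 rose 2.96-fold in G1 cells and 2.47-fold in S/G2/M cells (q = 0.00861 and 0.00971 in the authors' deposited table). The sort gene Kit rose 2.38-fold in S/G2/M cells (q = 0.0285 in that table) and was not called in G1 cells. No macrophage, neuronal or mesenchymal marker was listed at 0 in any group, and the lowest value in any of these tables was 0.452 FPKM, of Cd14. The part of these cells in the values of the 10 genes was not tested, and in sorted bulk samples more cells of a type and more RNA per cell cannot be told apart. Genes closest in pattern to Rb1 were Ctsf, a lysosomal cathepsin (distance 0.0937), Dpp7, a vesicular peptidase (0.117), Wdfy3 (0.127), Erlec1 (0.132) and Tbc1d16 (0.139).

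**Figure D3:**
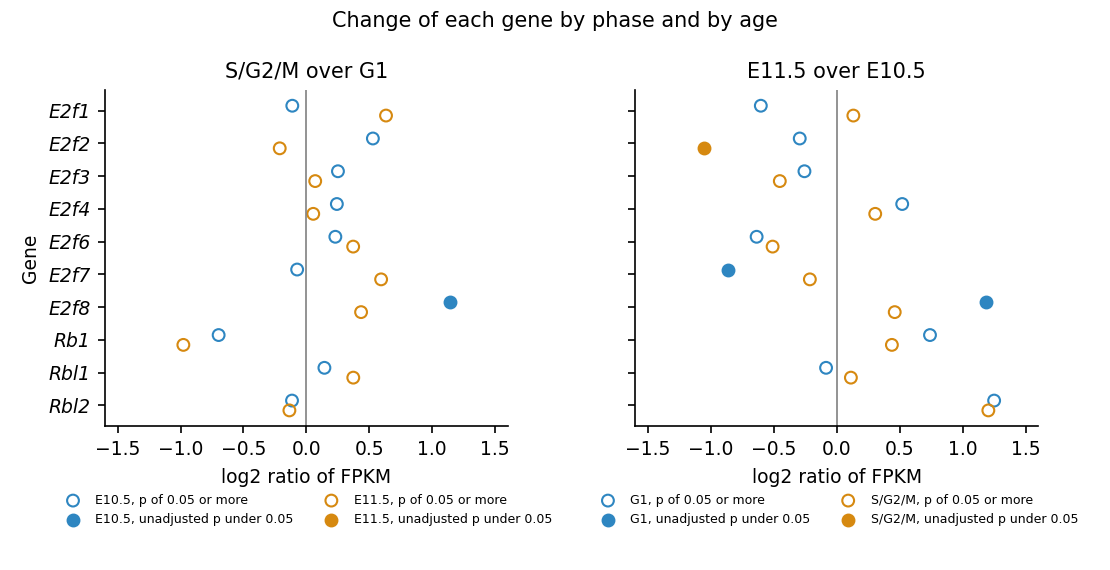
Log2 ratio of FPKM (horizontal axis) for each gene (vertical axis), between phases on the left (E10.5 and E11.5) and between ages on the right (G1 and S/G2/M cells). Filled points mark the 4 ratios whose p before adjustment was under 0.05 in the authors' deposited table, and no point is called.

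At E10.5, 6 of 10 members were higher in S/G2/M cells, beside 47.1% of all tested genes, with a median log2 ratio of 0.19, beside -0.04 over all tested genes. At E11.5, 7 of 10 were higher, beside 46.0% of all, with a median of 0.22, beside -0.06. No test was made of these counts or medians. E2f3, E2f4, E2f6, E2f8 and Rbl1 were higher in S/G2/M at both ages, Rb1 and Rbl2 were lower at both, and E2f1, E2f2 and E2f7 had opposite directions. Between ages 4 of 10 were higher at E11.5 in G1 cells, beside 50.9% of all, with a median of -0.17, beside 0.02. In S/G2/M cells 6 of 10 were, beside 52.1%, with a median of 0.12, beside 0.03. E2f4, E2f8, Rb1 and Rbl2 were higher at E11.5 in both phases and E2f2, E2f3, E2f6 and E2f7 were lower in both. Many of these differences are under 1.3-fold, and a direction of that size carries little weight without replicate values.

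**Figure D4:**
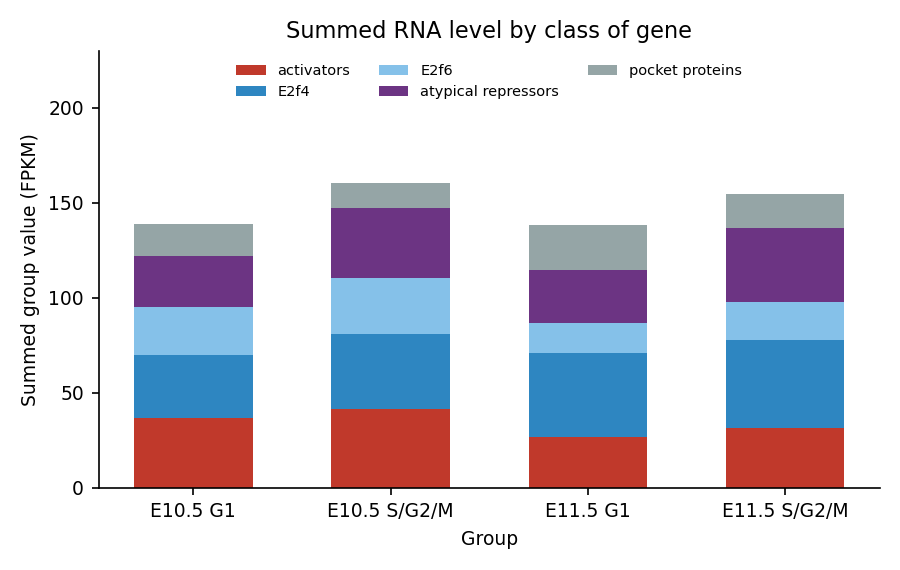
Summed FPKM (vertical axis, from 0) of the activators (E2f1, E2f2, E2f3), E2f4, E2f6, the atypical repressors (E2f7, E2f8) and the pocket proteins in the 4 groups (horizontal axis). The 10 genes sum to 139 and 160.3 FPKM at E10.5 and to 138 and 154 FPKM at E11.5, and E2f4 makes up 23.8% of the sum in E10.5 G1 cells and 32.2% in E11.5 G1 cells.

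At E10.5 the pocket proteins summed to 16.5 FPKM in G1 cells and 13.3 in S/G2/M cells, and at E11.5 to 24.0 and 17.7 FPKM. Their share of the 10 genes was highest in E11.5 G1 cells, at 17.3%, and lowest in E10.5 S/G2/M cells, at 8.30%. E2f6 made up 18.4% and 18.7% of the sum at E10.5 and 11.2% and 12.9% at E11.5. The sums describe RNA and not protein, whose activity in this pathway is set largely by phosphorylation.

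The partners and upstream regulators of the family are given next, with the share of all tested genes called beside their calls. Tfdp1, the DP protein that most E2F factors need to bind DNA, had 44.4 and 69.6 FPKM at E10.5 and 40.6 and 68.6 FPKM at E11.5. Both S/G2/M values lay above both G1 values, with p = 0.0351 and 0.0480 and q = 0.661 and 0.598 in the authors' deposited table. Tfdp2 had 8.45 and 10.9 FPKM at E10.5 and 5.96 and 4.68 FPKM at E11.5. Its age difference in S/G2/M cells was 2.25-fold, with q = 0.0741 in the authors' deposited table.

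Of 9 cyclin and kinase genes that act on pocket proteins, none was called between phases at either age, or between ages in G1 cells. The shares of all tested genes called there were 0.655% at E10.5, 0.701% at E11.5 and 4.45% between ages. In S/G2/M cells 1 of the 9 rose with age and 1 fell, beside 4.07% of all tested genes called. Cdk6, a cyclin D kinase, rose 2.34-fold, from 25.6 to 59.9 FPKM (q = 0.0265 in the authors' deposited table). Ccnd2, which encodes cyclin D2, fell 2.15-fold, from 128 to 59.2 FPKM (q = 0.00308). Cdk4, the most abundant of the list, had 446 and 494 FPKM at E10.5 and 283 and 357 FPKM at E11.5. Among 7 CDK inhibitor genes 5 were tested. Cdkn1c (p57) fell 2.23-fold from G1 to S/G2/M cells at E10.5 and 2.74-fold with age in G1 cells (q = 0.0101 and 0.00273 in the authors' deposited table). In these comparisons 0.655% and 4.45% of all tested genes were called. No other inhibitor gene was called in any comparison. Cdkn1a (p21) had 41.7 and 18.8 FPKM at E10.5 and 52.3 and 21.0 FPKM at E11.5, so that both G1 values lay above both S/G2/M values, with q = 0.339 and 0.195 in the authors' deposited table. Cdkn2a was listed at 0 in every group.

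Of 8 genes for the MuvB core and the factors that bind it, 1 was called in 1 comparison, where 4.45% of all tested genes were. Foxm1 rose 2.58-fold with age in G1 cells, from 10.9 to 28.1 FPKM (q = 0.0369 in the authors' deposited table). Between phases at E10.5 it had q = 0.0804 in that table. Mybl2, the B-Myb gene and a known E2F target, had 8.97 and 19.4 FPKM at E10.5 and 11.7 and 18.1 FPKM at E11.5, with p = 0.00685 and 0.135 between phases in the authors' deposited table. The core subunit gene Rbbp4 had 35.1 to 41.7 FPKM, and Lin37 had 41.2 FPKM in E10.5 G1 cells and 20.4 to 22.7 FPKM in the other 3 groups.

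The targets that lie downstream of these factors are given by their time of action. Of 31 G1/S targets, which E2F factors switch on before replication, none was called in any comparison. Of all tested genes, 0.655% and 0.701% were called between phases, and 4.45% and 4.07% between ages. Between phases a count of 0 is thus close to the share of all genes. No test compared these targets with the late targets below. Between phases 24 were higher in S/G2/M cells at E10.5, and 22 were at E11.5, with median log2 ratios of 0.25 and 0.22. Of all tested genes 47.1% and 46.0% were higher. At each age 4 of the 31 had a p under 0.05 before adjustment, all 4 higher. Of all tested genes, 312 of 12984 at E10.5 and 412 of 12414 at E11.5 had such a p and were higher. In either direction it was 6.69% and 8.27% of them. Between ages 22 of the 31 were lower at E11.5 in G1 cells and 26 of the 31 in S/G2/M cells, beside 49.1% and 47.9% of all tested genes, with medians of -0.22 and -0.24. Pcna, the replication clamp, had 350.1 and 437 FPKM at E10.5 and 267 and 316 FPKM at E11.5. Gins2, a subunit of the replicative helicase, had 163 and 212 FPKM at E10.5 and 148 and 171 FPKM at E11.5.

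Of 26 late targets, which MuvB complexes hold silent in G1 and switch on in G2, all 26 were higher in S/G2/M cells at each age. At E10.5, 6 of the 26 rose, beside 0.193% of all tested genes, with a median log2 ratio of 1.09. At E11.5, 3 of the 26 rose, beside 0.137%, with a median of 1.0. Plk1, a mitotic kinase, rose 4.26-fold at E10.5 and 3.57-fold at E11.5. Prc1, a protein of the central spindle, rose 3.67-fold at E10.5, Kif11, a spindle motor, 2.72-fold and Ube2c, of the mitotic ubiquitin pathway, 2.66-fold. Top2a, a topoisomerase, rose 2.48-fold at E10.5 and 2.47-fold at E11.5. Cdk1 rose 2.69-fold at E10.5, and Ube2c 2.43-fold at E11.5. Between ages Mki67 rose in both phases, 2.77-fold in G1 cells and 2.06-fold in S/G2/M cells, and Ccnb2, which encodes cyclin B2, fell 2.26-fold in S/G2/M cells. No other late target was called between ages.

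**Figure D5:**
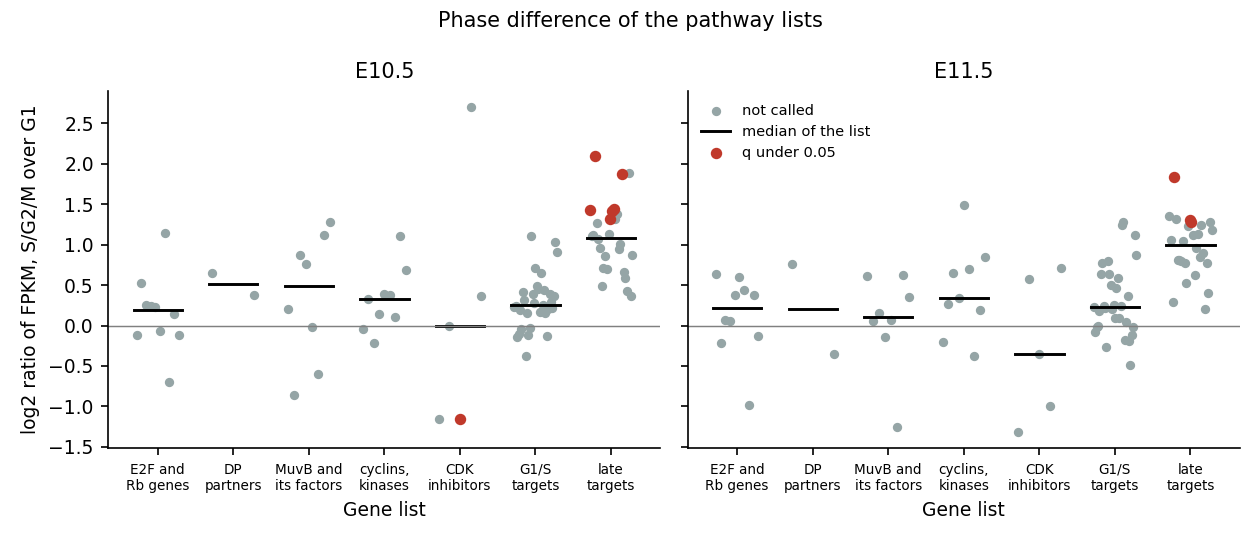
Log2 ratio of FPKM, S/G2/M over G1 (vertical axis), for the tested genes of 7 lists (horizontal axis) at E10.5 on the left and E11.5 on the right. Each point is a gene, lines are list medians and red points had a q under 0.05 in the authors' deposited table. Called genes are 6 late targets and Cdkn1c at E10.5 and 3 late targets at E11.5.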

How the data were processed

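RNA was sequenced in 12 samples of sorted cluster cells, 3 per group. The submitters' processing notes name Cuffdiff, TopHat, CASAVA 1.4 and mm10, with no role, whereas the labels' protocols name bowtie 0.12.2 and mm8. Of 22763 symbols matched to RefSeq GRCm38.p6, 22435 deposited loci overlapped the gene of that name, and positions are therefore read as mm10. Starts, which the files count from 0, are printed from 1. Nothing in those sources says whether counting used strand.

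The authors deposited 6 tables with 1 FPKM value per gene and group, and, per the file headers, a p-value and q-value for each pair of groups. Depth is not stated, so no interval is given. Genes with status other than tested numbered 11154 to 11794 per table. Fold changes were computed here as ratios of group FPKM, with no pseudocount, and calls are the authors' q under 0.05. The group named G2 in the tables was read as S/G2/M, since the labels hold no other sorted group. Values per sample were not used here, so no test was fitted. The members, lists and rules were chosen with earlier results of these data known.

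Levels in 4 groups come from the tables of phases with G1 first. The rule for named genes took all members, up to 4 called genes per list and comparison, otherwise the 2 most abundant, and the 5 genes closest in pattern to the E2F and pocket gene with the widest range. Mybl2, Foxm1 between phases, Cdkn1a, Cdkn2a, Mga, Lin37, Ncan, Runx1 and the pair of E2f8 and E2f7 were singled out after their values were seen. So were Cd14, and Pecam1 and Kit between ages, and Cdk1 and Top2a between phases at E10.5. The code was tested on simulated data. Tables were read with pandas 2.3.3 and numpy 2.4.6 in Python 3.11.15, and plots drawn with matplotlib 3.10.9. The alternatives were other q thresholds, a minimum fold or FPKM, a pseudocount, median scaling, summed rows and the authors' tables in the other order.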

Additional observations from a re-analysis of the deposited data

How the results depend on the processing

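The count of 0 called members held in all 4 comparisons at q under 0.085. A q under 0.01, a log2 change of at least 1, or at least 1 or 5 FPKM can only remove calls. These settings therefore had to give 0 again and do not test the count. The count also held in the 2 tables of phases in the other order, which hold the same samples. In the tables of phases no gene could pass 0.01. All 40 log2 ratios of members kept their direction with the median of all genes set to 0, as did the 20 between phases in the other order. A pseudocount of 1 cannot change a direction. Summed rows gave the same values, since each member has 1 row, so neither setting tests the directions. With the pseudocount, Rbl2 no longer had the largest age ratio in either phase. Sums by class moved by -4.79% to 4.25% in the tables of ages. Of 28 list counts, chosen for this check after the data were seen, 5 went from 0 to 1 at q under 0.085: MuvB factors between phases at E10.5, cyclins and kinases with age in G1, G1/S targets with age in each phase, and DP partners with age in S/G2/M. At that threshold the late targets called between phases also went from 6 to 7 at E10.5 and from 3 to 4 at E11.5. None of the 14 moved by over 1.5 times in the other order. No paired analysis was possible because the tables hold no values per sample, and for the same reason no replicate could be left out. The unknown depth limits all statements on genes under about 5 FPKM, such as Rbl1 and Rbl2. This includes E2f2 in E11.5 S/G2/M cells, at 4.57 FPKM, and so its age difference there.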
